A study of Mus musculus with 4 samples.

Results

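The subject is a group of 10 chemokine genes of T cells, Xcl1, Ccl20, Ccl1, Ccl3, Ccl4, Ccl9, Ccl5, Cxcl10, Ccl17 and Ccl22. They were found as every probe that was not a control and carried 1 of these names in all 13 scanner files, which gave 11 of 41174 probes, 2 of them for Ccl5, and 10 of the 19932 genes tested. The samples were CD4 T cells from mouse lymph nodes. All were kept for 4 days on plates coated with 1 ug/ml anti-CD3, an antibody that engages the T cell receptor, and for 3 days with IL2, a T cell growth factor, at 100 units/ml. The control condition, called IL2, had IL2 alone, and the other conditions added TGFb (4 ng/ml), IL6 (25 ng/ml) or the pair of them. Each two-colour Agilent array carried the RNA of regulatory T cells (Treg) in one dye and that of T-effector cells in the other. TGFb with IL6 had 4 arrays and each of the other conditions had 3. The series asks how Treg form under TGFb and how IL6 inhibits this. The labels used here do not give the strain or age of the mice, how Treg and T-effector cells were separated, or whether arrays came from separate cultures, so p-values measure only the spread between arrays, which may be technical.

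Chemokines are small secreted proteins that guide cells carrying a matching receptor. T cells start to make several of them after the T cell receptor is engaged, and which ones they make depends on the cytokines present. TGFb favours Foxp3-expressing Treg, and TGFb together with IL6 favours the Th17 lineage, a helper lineage known for Ccl20 and for its receptor Ccr6. The group holds Xcl1 (lymphotactin), which attracts dendritic cells carrying Xcr1, and Ccl1, the ligand of Ccr8. It also holds the inflammatory ligands Ccl3, Ccl4, Ccl5 and Ccl9, the Ccr4 ligands Ccl17 and Ccl22, and Cxcl10, the interferon-induced ligand of Cxcr3.

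The files place the arrays on 5 slides, which are lettered A to E. Slide A held IL2 array 1 and IL6 array 2, and slide C held IL2 array 3. Slide B held TGFb array 2 and arrays 2 and 4 of the combined condition. Slide D held IL2 array 2, TGFb array 3 and array 3 of TGFb with IL6, and slide E held the rest. TGFb and IL2 thus met on slide D, and TGFb with IL6 met IL6 on slide E. Negative control spots of slide B gave Cy3 signals of 118 to 123, against 3.59 to 25.4 on the other slides. Probes well above background made up 38.9% to 69.8% of a Treg channel and 41.8% to 67% of a T-effector channel. All 7 CD4 T cell markers on the array were above background in every channel. Foxp3, the transcription factor that defines Treg, exceeded its T-effector signal in the Treg samples by 2.39 ± 0.17 (log2 ± SE) in IL2, 1.95 ± 0.17 in TGFb, 2.16 ± 0.14 in TGFb with IL6 and 2.12 ± 0.17 in IL6. The Treg samples of slide A stood apart. Their summed signal over 8 CD8 T cell and NK cell markers was 1554 and 1525, against 2876 to 5195 in the other Treg samples. Their summed signal over 12 interferon-induced genes was 10511 and 10330, against 5770 to 7640. The 6 B cell markers summed to between 8900 and 9918 in the Treg samples of TGFb and to between 3408 and 5986 in the other Treg samples. The higher sum did not hold for the markers as a set. From IL2 to TGFb their median log2 change in Treg samples was -0.47, against -0.01 over all genes. At an adjusted p under 0.05, 1 of the 6 rose and 2 fell, against 3.66% and 4.08% of all genes. The part of these differences in the chemokine results was not tested.

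Promoters were printed for the members whose signals moved most together with TGFb or IL6, so that the results can be read beside the DNA before each gene. RefSeq promoter sequences (GRCm38.p6) matched 8 of the 10 members, not Ccl4 and Ccl5. The 250 bases before the start site were searched on both strands for 6 motifs. They were NF-kB (by its name), AP-1 (TGANTCA), an interferon response (ISRE) core (GAAA, any 2 bases, GAAA), a ROR half-site (AGGTCA), a SMAD box (CAGACA) and an NFAT core (GGAAAA). Capitals mark the matches. Ccl20 lies on the plus strand at chr1:83116516-83116765, Xcl1 on the minus strand at chr1:164935523-164935772, Ccl1 on the minus strand at chr11:82179813-82180062 and Cxcl10 on the minus strand at chr5:92348890-92349139.
Ccl20: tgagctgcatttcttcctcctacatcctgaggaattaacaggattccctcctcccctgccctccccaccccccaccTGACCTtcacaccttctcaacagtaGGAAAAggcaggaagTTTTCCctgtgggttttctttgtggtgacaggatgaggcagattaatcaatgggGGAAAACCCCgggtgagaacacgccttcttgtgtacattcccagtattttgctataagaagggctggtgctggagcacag
Xcl1: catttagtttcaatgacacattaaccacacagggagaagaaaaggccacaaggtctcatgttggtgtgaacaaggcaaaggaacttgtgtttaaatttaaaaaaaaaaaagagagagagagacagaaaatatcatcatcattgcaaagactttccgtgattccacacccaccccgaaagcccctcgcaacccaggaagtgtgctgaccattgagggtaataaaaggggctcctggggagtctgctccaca
Ccl1: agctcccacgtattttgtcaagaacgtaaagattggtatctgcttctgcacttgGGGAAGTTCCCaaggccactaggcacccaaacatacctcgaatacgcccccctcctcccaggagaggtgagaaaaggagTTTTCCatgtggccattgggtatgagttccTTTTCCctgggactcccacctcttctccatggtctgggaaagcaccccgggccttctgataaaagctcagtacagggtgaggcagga
Cxcl10: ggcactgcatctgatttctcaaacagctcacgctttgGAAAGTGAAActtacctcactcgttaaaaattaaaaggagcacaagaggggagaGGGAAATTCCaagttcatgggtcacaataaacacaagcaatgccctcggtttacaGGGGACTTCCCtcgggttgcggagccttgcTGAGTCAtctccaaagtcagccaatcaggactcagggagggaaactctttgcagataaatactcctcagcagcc
The Ccl20 promoter held an NF-kB match 80 bases before the start site, a ROR half-site at 174 bases and NFAT cores at 149, 134 and 80 bases, the last inside the NF-kB match. The Xcl1 promoter held none of these letters in this window. The Ccl1 promoter held overlapping NF-kB matches at 196 and 195 bases and NFAT cores at 117 and 87 bases. The Cxcl10 promoter held NF-kB matches at 159, 104 and 103 bases, the last pair overlapping. It also held an AP-1 match at 74 bases and the only ISRE core among the 8 promoters, at 213 bases. Of the 8 promoters, 4 held the NF-kB motif (Ccl1, Ccl9, Ccl20 and Cxcl10), against 7.25% of 32851 promoters of the same length. The AP-1 motif was in 2 of 8 against 6.75%, the ISRE core in 1 against 2.98%, and the ROR half-site in 4 against 14%. The SMAD box was in 2 of 8 against 17.1%, and the NFAT core in 3 against 20.4%. A match is a description of the letters and does not show that a factor binds there.

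Adding TGFb to IL2 moved most of the group in both cell types. In Treg samples 4 of 10 members rose (Xcl1, Ccl1, Ccl20 and Ccl3) and 4 fell (Ccl5, Cxcl10, Ccl9 and Ccl17). Of all genes 3.66% rose, 4.08% fell and 7.75% in all passed the threshold, an adjusted p of 0.05. In T-effector samples 5 of 10 rose (Ccl20, Ccl1, Xcl1, Ccl3 and Ccl4) and 4 fell (Ccl5, Cxcl10, Ccl9 and Ccl22), against 1.87% and 2.45% of all genes and 4.32% in all. Ccl22 was bright enough to be tested only through channels without TGFb, so its falls with TGFb, here and below, are not independent of that choice. The members' median change was 0.01 in Treg and 0.72 in T-effector samples (log2), against -0.01 and 0.01 over all genes.

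Adding IL6 to IL2 moved 1 member of 10, Xcl1, which fell in T-effector samples, where 0.401% of all genes fell, 0.391% rose and 0.793% in all passed. In Treg samples limma called 0 of 10 members, where 0.391% of all genes rose, 0.552% fell and 0.943% in all passed, and 4 members had an unadjusted p under 0.05. The share of all genes at that unadjusted threshold was not counted, here or below. Unadjusted counts of members therefore cannot be set against the shares given, which are at the adjusted threshold. Adding IL6 to TGFb lowered Xcl1 and Ccl1 and raised Cxcl10 in both cell types. These are 3 of 10 members in each, against 5.6% of all genes in Treg (2.83% rose, 2.76% fell) and 7.42% in T-effector samples (4.16% rose, 3.26% fell). Adding TGFb to IL6 raised Xcl1 and Ccl20 and lowered Ccl5 and Ccl9 in both. It also raised Ccl4 and lowered Ccl22 in Treg samples, 6 of 10 members against 10% of all genes (4.83% rose, 5.21% fell). In T-effector samples it also raised Cxcl10, 5 of 10 members against 11.1% of all genes (5.09% rose, 6.03% fell).

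Between Treg and T-effector samples of 1 condition, Xcl1 was the member that passed. It was lower in the Treg samples of IL2 (1 of 10 members, against 11% of all genes, 7.4% higher and 3.56% lower). It was higher in those of TGFb (1 of 10, against 5.92%, 4.12% higher and 1.8% lower) and of TGFb with IL6 (1 of 10, against 5.82%, 3.49% higher and 2.33% lower). In IL6 limma called 0 of 10 members, against 5.82% of all genes (3.75% higher, 2.07% lower), and 3 members had an unadjusted p under 0.05. With array ratios centred on the median in place of loess, the calls over the 4 conditions were 1 higher and 6 lower, against 2 higher and 1 lower. Over all genes the calls of the 4 conditions then went from 5686 to 19479.

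The Treg to T-effector ratio itself changed with a cytokine for Xcl1 and Ccl20. From IL2 to TGFb 1 member of 10 rose and 1 fell, against 5.85% of all genes (2.34% rose, 3.51% fell). From IL6 to TGFb with IL6 1 of 10 rose, against 3.95% (1.5% rose, 2.45% fell). From IL2 to IL6 limma called 0 of 10 members and 0% of all genes, and 3 members had an unadjusted p under 0.05. From TGFb to TGFb with IL6 it called 0 of 10 members, against 0.291% of all genes (0.1% rose, 0.191% fell), and 0 had an unadjusted p under 0.05. Centred on the median, the ratios gave 5 rises and 1 fall over these comparisons, against 2 and 1. Over all genes the calls of these comparisons then went from 2011 to 14524. The 16 comparisons share arrays and are not independent of each other.

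**Figure D1:**
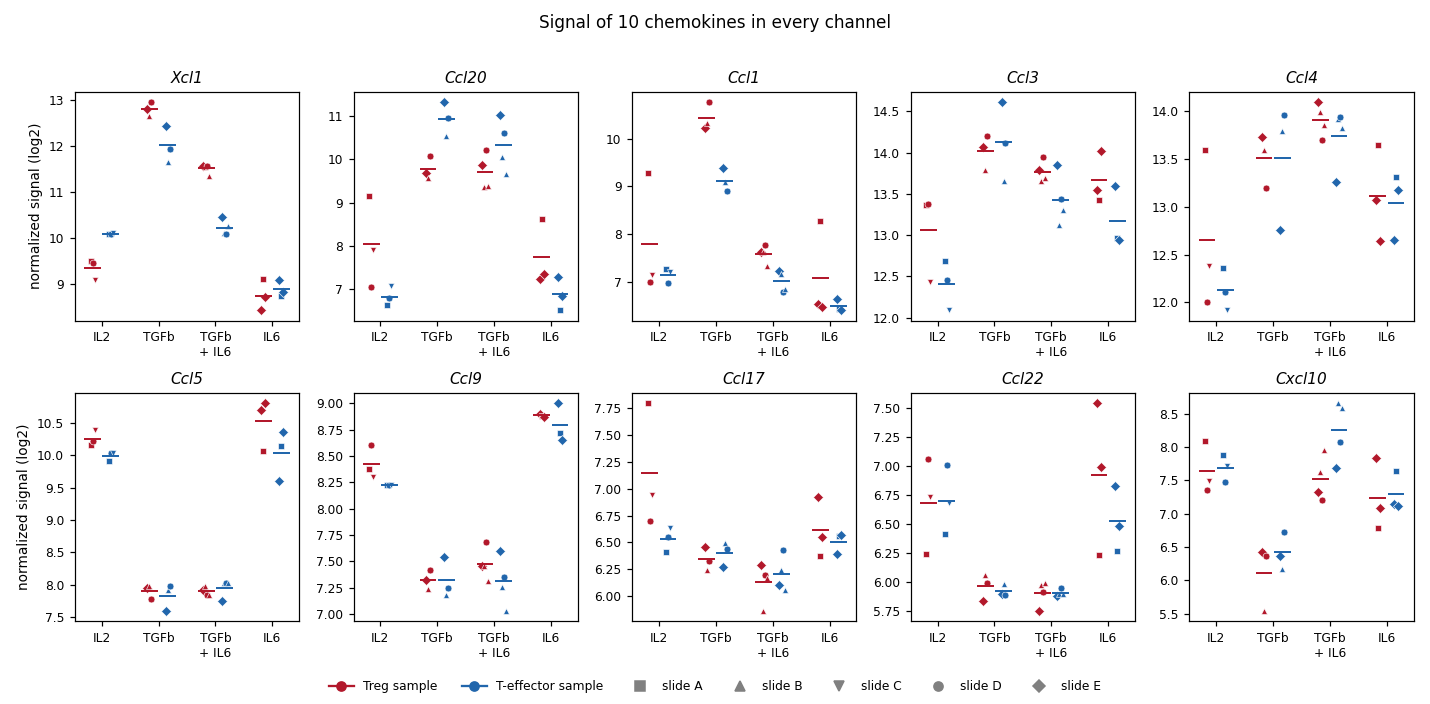
Normalized log2 signal (vertical axis) of each chemokine in every channel, by condition (horizontal axis), with Treg and T-effector samples in separate colours, a marker shape for each slide and a line at each group's mean. Xcl1 was highest in the TGFb samples (11.65 to 12.95) and Ccl20 in the T-effector samples of TGFb (10.53 to 11.32), and Ccl5 was lower in all samples with TGFb (7.59 to 8.02) than in those without (9.6 to 10.81).

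Xcl1 stood highest in the Treg samples of TGFb. Its probe lies at chr1:164899708-164899767 on the minus strand (mm7, per the file headers, also for the probes below) and was above background in all 26 channels. On arrays 1 to 3 of IL2 the log2 signal was 9.5, 9.44 and 9.07 in Treg and 10.07, 10.08 and 10.1 in T-effector samples. With TGFb it was 12.81, 12.65 and 12.95 in Treg and 12.44, 11.65 and 11.94 in T-effector samples. The lowest TGFb sample thus lay above the highest IL2 sample. With TGFb and IL6 together, the 4 Treg samples gave 11.57, 11.55, 11.56 and 11.35 and the T-effector samples 10.44, 10.11, 10.08 and 10.25. With IL6 they gave 8.42, 9.09 and 8.7 in Treg and 9.08, 8.73 and 8.81 in T-effector samples. Every sample with IL6 alone was below every T-effector sample of IL2, and the lowest 3 groups in order were IL2 Treg, IL6 T-effector and IL6 Treg, each overlapping the next. The T-effector groups of TGFb with IL6 and of IL2 also overlapped, and the other neighbours in the order did not.

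TGFb raised Xcl1 by 3.47 ± 0.21 in Treg samples (log2 ± SE, 11.1-fold, limma adjusted p = 2.56e-10) and by 1.92 ± 0.21 in T-effector samples (3.78-fold, adjusted p = 4.46e-06). In the presence of IL6, TGFb raised it by 2.77 ± 0.2 in Treg (6.82-fold, adjusted p = 1.54e-09) and by 1.34 ± 0.2 in T-effector samples (2.54-fold, adjusted p = 5.83e-05). IL6 worked in the other direction. Added to TGFb it lowered Xcl1 by a log2 change of -1.3 ± 0.2 in Treg (adjusted p = 0.000128) and -1.79 ± 0.2 in T-effector samples (adjusted p = 2.05e-06). Added to IL2 the change was -1.22 ± 0.21 in T-effector samples (adjusted p = 0.00369) and -0.6 ± 0.21 in Treg samples, where it did not pass (adjusted p = 0.299). The Xcl1 differences between conditions that passed kept their call with slide as a block and without each array in turn. On slide D the TGFb sample exceeded the IL2 sample by 3.51 in Treg and 1.86 in T-effector samples, and on slide E TGFb with IL6 exceeded IL6 by 3.16 and 1.35.

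The order of the cell types for Xcl1 turned over between conditions. Treg samples were below T-effector samples on 3 of 3 arrays in IL2, with log2 ratios of -0.58, -0.64 and -1.03 and a fitted ratio of -0.75 ± 0.19 (adjusted p = 0.0272). They were above on 3 of 3 arrays in TGFb (0.37, 1.01 and 1.02, fitted 0.8 ± 0.19, adjusted p = 0.0284) and on 4 of 4 in TGFb with IL6 (1.13, 1.45, 1.48 and 1.1, fitted 1.29 ± 0.16, adjusted p = 0.0011). In IL6 the arrays gave -0.67, 0.36 and -0.11 and a fitted ratio of -0.13 ± 0.19 (95% interval -0.54 to 0.28). The ratio rose by 1.56 ± 0.27 from IL2 to TGFb (adjusted p = 0.0102) and by 1.43 ± 0.25 from IL6 to TGFb with IL6 (adjusted p = 0.015). With slide as a block the ratios were -0.89, 0.83 and 1.3 and the changes 1.72 and 1.34, all past the threshold, and within a slide the changes were 1.66 (slide D) and 1.8 (slide E). The ratio in IL2 missed the threshold without array 1, 2 or 3 of IL2 (adjusted p = 0.0692, 0.105 and 0.112), and that in TGFb without its array 2 or 3 (0.137 and 0.342). The change from IL2 to TGFb missed it without TGFb array 3 (0.0976), and that from IL6 without array 1, 2 or 3 of TGFb with IL6 (0.0512, 0.0545 and 0.057) or IL6 array 3 (0.0697).

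CD8 T cells and NK cells also make Xcl1, Ccl3, Ccl4 and Ccl5. The 8 markers of these cells on the array were all above background somewhere, and Cd8a, Cd8b1 and Klrd1 were in all 26 channels. Ncr1, which marks NK cells, was above background in 2 of 13 Treg and 3 of 13 T-effector channels. The summed signal of the markers in Treg samples ran from 1554 to 3392 in IL2, 3334 to 4572 in TGFb, 4358 to 5195 in TGFb with IL6 and 1525 to 3754 in IL6. In T-effector samples it ran from 3268 to 4050, 2971 to 3837, 3082 to 4046 and 3079 to 3867. The sum was highest in the Treg samples of TGFb with IL6, and Xcl1 was highest in those of TGFb. The markers' median log2 difference of Treg minus T-effector samples was -0.26 in IL2, 0.13 in TGFb, 0.15 with both and -0.3 in IL6. Over all genes these medians were -0.01 to 0.02. The part of these markers in the chemokine results was not tested. In such mixed RNA, fewer cells of a type and less RNA per cell cannot be told apart.

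Ccl20, the ligand of Ccr6, rose most in T-effector samples. Its probe lies at chr1:83327742-83327801 on the plus strand. In IL2 the T-effector samples gave 6.62, 6.78 and 7.07 and with TGFb 11.32, 10.53 and 10.95, a rise of 4.16 ± 0.49 (17.8-fold, adjusted p = 1.39e-05). In IL6 they gave 7.28, 6.51 and 6.83 and with TGFb and IL6 11.03, 10.05, 10.62 and 9.66, a rise of 3.44 ± 0.46 (10.8-fold, adjusted p = 2.02e-05). The lowest T-effector sample with TGFb, 9.66, thus lay above the highest without, 7.28. Steps in the Treg samples were smaller. They gave 9.15, 7.05 and 7.91 in IL2 and 9.69, 9.57 and 10.08 in TGFb, a rise of 1.7 ± 0.49 (3.25-fold, adjusted p = 0.0362). In IL6 they gave 7.23, 8.61 and 7.35 and with both cytokines 9.86, 9.37, 10.22 and 9.38, a rise of 2 ± 0.46 (4-fold, adjusted p = 0.00577). The highest Treg samples without TGFb, 9.15 and 8.61, were the pair from slide A. In the order of the 8 groups, the 4 with TGFb did not overlap the 4 without, and within each of these sets every group overlapped the next.

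Adding IL6 did not move Ccl20 past the threshold in the fit over all arrays. The change on top of TGFb was -0.05 ± 0.46 in Treg (95% interval -1.01 to 0.91) and -0.62 ± 0.46 in T-effector samples (-1.58 to 0.34). The change on top of IL2 was -0.35 ± 0.49 (-1.38 to 0.68) and 0.1 ± 0.49 (-0.93 to 1.13). These intervals are wide, and none of them shows that IL6 left Ccl20 as it was. Within the 3 pairs of TGFb arrays that shared slide and dye, IL6 lowered it in T-effector samples (-0.37 ± 0.08, adjusted p = 0.00704) and not past the threshold in Treg samples (0.04 ± 0.09, 0.824). With slide as a block over all arrays the T-effector change was -0.51 ± 0.33 and did not pass (adjusted p = 0.365). On slide D the step from IL2 to TGFb was 3.02 in Treg and 4.17 in T-effector samples, and on slide E that from IL6 to TGFb with IL6 was 2.64 and 3.75. The Treg step from IL2 to TGFb was 2.24 ± 0.4 with slide as a block (adjusted p = 0.000883) and 2.38 without IL2 array 1 (0.00362). It missed the threshold without IL2 array 2 or 3 (0.17 and 0.109), TGFb array 1, 2 or 3 (0.0888, 0.0657 and 0.202), array 2 of TGFb with IL6 (0.0535) or IL6 array 3 (0.0533), and the Treg step from IL6 missed it without IL6 array 3 (0.0584).

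The Ccl20 ratio fell from IL2 to TGFb. Treg samples exceeded T-effector samples on all 3 arrays of IL2, with log2 ratios of 2.53, 0.27 and 0.84. They were lower on all 3 arrays of TGFb (-1.63, -0.96 and -0.88) and on all 4 of TGFb with IL6 (-1.17, -0.67, -0.4 and -0.28), and in IL6 the arrays gave -0.06, 2.1 and 0.51. The change of the ratio from IL2 to TGFb was -2.46 ± 0.61 (adjusted p = 0.0386), while no single condition's ratio passed (fitted 1.26, -1.2, -0.63 and 0.81 in the order IL2, TGFb, both and IL6). With slide as a block the change was -1.39 ± 0.21 (adjusted p = 0.0171) and on slide D it was -1.15. The ratios then passed in IL2 (0.68 ± 0.15, adjusted p = 0.03), TGFb (-0.71 ± 0.13, 0.0158) and IL6 (0.64 ± 0.14, 0.0306), as did the change from IL6 to TGFb with IL6 (-0.98 ± 0.19, 0.0304). Without IL2 array 1, the slide A array, the change from IL2 was -1.56 (adjusted p = 0.181). It also missed the threshold without IL2 array 2 or 3 (0.0502 and 0.0563), TGFb array 1, 2 or 3 (0.0988, 0.074 and 0.127), array 2 or 3 of TGFb with IL6 (0.0556 and 0.0615) or IL6 array 3 (0.0613).

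**Figure D2:**
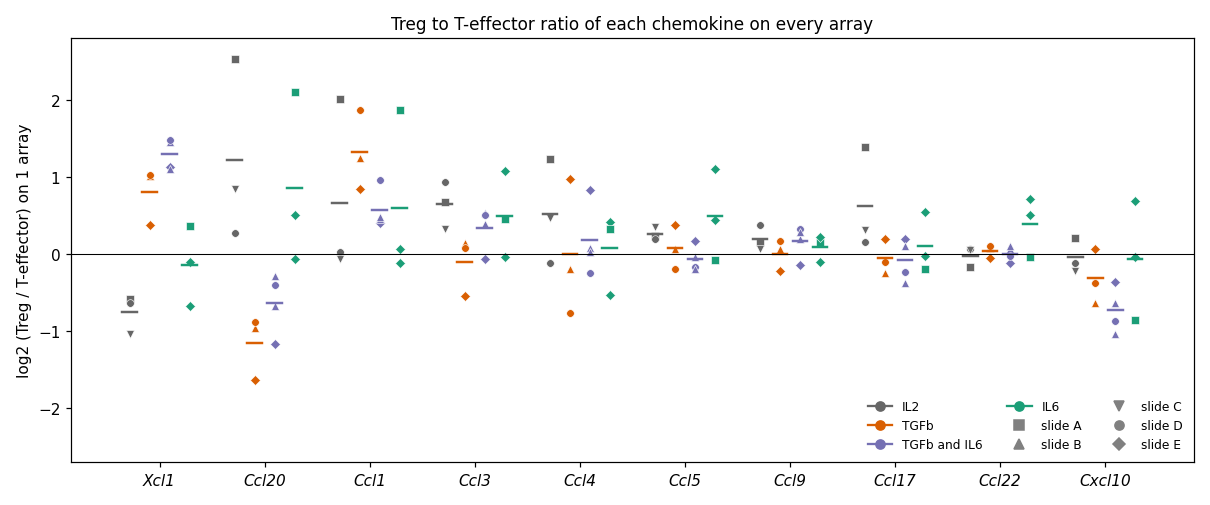
Log2 ratio of Treg over T-effector signal (vertical axis) of each chemokine (horizontal axis) on every array, with a colour for each condition, a marker shape for each slide and a line at each condition's mean. Xcl1 lay below 0 on all 3 IL2 arrays (-1.03 to -0.58) and above 0 on all 7 arrays with TGFb (0.37 to 1.48), and Ccl20 lay above 0 on the IL2 arrays (0.27 to 2.53) and below 0 on those with TGFb (-1.63 to -0.28).

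Ccl1, the ligand of Ccr8, rose with TGFb and fell again when IL6 was added. Its probe lies at chr11:82258409-82258468 on the minus strand. In Treg samples the signal was 9.28, 6.98 and 7.13 in IL2, 10.22, 10.33 and 10.76 in TGFb, 7.62, 7.61, 7.76 and 7.32 in TGFb with IL6, and 6.52, 8.27 and 6.46 in IL6. In T-effector samples it was 7.27, 6.96 and 7.19 in IL2, 9.38, 9.08 and 8.89 in TGFb, 7.23, 7.16, 6.79 and 6.84 in TGFb with IL6, and 6.63, 6.42 and 6.4 in IL6. Both TGFb groups stood above every other group of their cell type on all arrays, and the Treg samples of TGFb lay above its T-effector samples. The highest Treg samples of IL2 and IL6, 9.28 and 8.27, were again those of slide A. TGFb raised Ccl1 by 2.58 ± 0.49 in Treg (5.96-fold, adjusted p = 0.0013) and 2.03 ± 0.49 in T-effector samples (4.1-fold, adjusted p = 0.0176). IL6 on top of TGFb changed it by -2.83 ± 0.46 (7.09-fold lower, adjusted p = 0.000291) and -2.14 ± 0.46 (4.41-fold lower, adjusted p = 0.00404). TGFb on top of IL6 changed it by 0.52 ± 0.46 and 0.49 ± 0.46, which did not pass.

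The fall with IL6 was seen on each slide that held both conditions. It was -2.71, -3 and -2.59 in Treg and -1.91, -2.1 and -2.15 in T-effector samples on slides B, D and E. On slide D the rise with TGFb was 3.77 and 1.94. Treg samples exceeded T-effector samples on 3 of 3 arrays of TGFb (0.84, 1.25 and 1.86) and on 4 of 4 of TGFb with IL6 (0.4, 0.45, 0.96 and 0.48), with fitted ratios of 1.26 ± 0.41 and 0.57 ± 0.35 that did not pass. With slide as a block these were 1.64 ± 0.13 (adjusted p = 0.000556) and 0.9 ± 0.12 (0.00431), and the change of the ratio from IL2 to TGFb was 1.49 ± 0.22 (0.0154). The T-effector rise missed the threshold without IL2 array 2 or 3 (0.0513 and 0.0603) or TGFb array 1 (0.0963), the T-effector fall missed it without the 3 arrays of slide B (0.127), and the Treg rise was 3.42 without IL2 array 1.

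When TGFb was added to IL2, the 4 inflammatory ligands split by direction. Ccl3 rose in both cell types and Ccl4 in T-effector samples, while Ccl5 and Ccl9 fell in both. Ccl3 (chr11:83717761-83717820, minus strand) gave 12.68, 12.45 and 12.09 in the T-effector samples of IL2 and 14.61, 13.66 and 14.12 in those of TGFb, a rise of 1.67 ± 0.26 (3.17-fold, adjusted p = 0.000367). In Treg samples it gave 13.36, 13.38 and 12.43 in IL2 and 14.07, 13.79 and 14.2 in TGFb, a rise of 1.01 ± 0.26 (2.02-fold, adjusted p = 0.0165). The IL2 and TGFb samples of each cell type did not overlap. With IL6 the signals were between 13.12 and 13.95 in the samples with TGFb and between 12.94 and 14.02 in those without, and no Ccl3 difference of these groups passed. With slide as a block 2 of them did in T-effector samples, a change of -0.61 with IL6 added to TGFb (adjusted p = 0.0097) and of 0.52 with TGFb added to IL6 (0.034). The Treg rise missed the threshold without IL2 array 3 (0.132) or TGFb array 1 or 3 (0.0582 and 0.0879).

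Ccl4 (chr11:83734455-83734514, plus strand), an inflammatory ligand whose gene lies close to that of Ccl3, rose in T-effector samples from 12.36, 12.11 and 11.92 in IL2 to 12.76, 13.79 and 13.96 in TGFb. The change was 1.52 ± 0.29 (2.87-fold, adjusted p = 0.00288). In Treg samples it gave 13.59, 12 and 12.38 in IL2 and 13.73, 13.59 and 13.19 in TGFb, a change of 0.7 ± 0.29 that did not pass (adjusted p = 0.174). The Treg sample of slide A lay inside the range of TGFb, and with slide as a block the change was 0.91 ± 0.22 (adjusted p = 0.0098). TGFb on top of IL6 raised Treg Ccl4 from 13.07, 13.64 and 12.64 to 14.09, 13.99, 13.7 and 13.85, by 0.87 ± 0.27 (1.82-fold, adjusted p = 0.0462). This value lay close to the threshold and missed it without IL2 array 3 (0.0536), TGFb array 3 (0.0675), array 1, 3 or 4 of TGFb with IL6 (0.0941, 0.0918 and 0.115) or IL6 array 1 or 3 (0.159 and 0.216). The call was also lost with no dye term (0.177), no filter (0.0601) or a replicate block (0.0834), and without slide B (0.117). In T-effector samples the same step was 0.62 ± 0.27 and did not pass (adjusted p = 0.168), and with slide as a block it was 0.72 ± 0.2 and passed (0.0137). IL6 added to IL2 changed T-effector Ccl4 by 1.06 ± 0.29 (adjusted p = 0.133), which was 1.12 ± 0.22 and past the threshold with slide as a block (0.0106).

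Ccl5 (RANTES), a ligand of Ccr1 and Ccr3, was clearly apart in samples with and without TGFb, whatever the cell type. Its tested probe lies at chr11:83595699-83595758 on the minus strand. The Treg samples gave 10.16, 10.23 and 10.39 in IL2, 7.95, 7.98 and 7.78 in TGFb, 7.92, 7.98, 7.84 and 7.83 with both, and 10.7, 10.07 and 10.81 in IL6. The T-effector samples gave 9.92, 10.04 and 10.03, then 7.59, 7.91 and 7.98, then 7.75, 8.02, 8.02 and 8.02, and 9.6, 10.15 and 10.37 in the same order. The 14 channels with TGFb and the 12 without did not overlap. In either set each group overlapped its neighbour in the order. TGFb changed Ccl5 by -2.39 ± 0.2 in Treg (5.22-fold lower, adjusted p = 2.7e-08) and -2.14 ± 0.2 in T-effector samples (4.42-fold lower, adjusted p = 4.95e-07). On top of IL6 the changes were -2.62 ± 0.18 (6.15-fold lower, adjusted p = 1.33e-09) and -2.1 ± 0.18 (4.3-fold lower, adjusted p = 4.74e-08).

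The second Ccl5 probe, at chr11:83595850-83595905, moved the same way. It gave 9.12 to 10.06 in the Treg samples without TGFb and 6.64 to 7.16 in those with it, and 8.79 to 9.33 and 6.7 to 7.1 in T-effector samples. IL6 added to TGFb changed Ccl5 by 0 ± 0.18 in Treg (95% interval -0.38 to 0.38) and 0.11 ± 0.18 in T-effector samples (-0.27 to 0.49). The 4 falls of Ccl5 kept their call under each of the 25 alternatives run. On slide D the fall with TGFb was -2.45 and -2.06, and on slide E on top of IL6 -2.78 and -1.85.

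Ccl9 (chr11:83644626-83644685, minus strand), a Ccr1 ligand, followed Ccl5 with smaller steps. The Treg signals were 8.38, 8.6 and 8.3 in IL2, 7.32, 7.24 and 7.42 in TGFb, 7.46, 7.46, 7.68 and 7.31 with both, and 8.9, 8.88 and 8.87 in IL6. In T-effector samples it gave 8.22 on all 3 arrays of IL2, 7.18 to 7.54 in TGFb, 7.03 to 7.6 with both and 8.65 to 9 in IL6. The groups with TGFb lay below every group without, and those of IL6 above those of IL2. TGFb changed Ccl9 by -1.06 ± 0.13 in Treg (2.08-fold lower, adjusted p = 7.36e-06) and -0.93 ± 0.13 in T-effector samples (1.91-fold lower, adjusted p = 1e-04). On top of IL6 it changed by -1.42 ± 0.12 (2.68-fold lower, adjusted p = 3.07e-08) and -1.46 ± 0.12 (2.75-fold lower, adjusted p = 2.12e-08). IL6 added to IL2 changed it by 0.49 ± 0.13 and 0.53 ± 0.13, which did not pass (adjusted p = 0.0854 and 0.0604), and the 4 falls kept their call under each alternative run.

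Cxcl10, which interferon induces and which attracts cells carrying Cxcr3, fell with TGFb and rose again when IL6 was added. Its probe lies at chr5:92334002-92334061 on the minus strand and was above background in 12 of 13 channels of each cell type, the exception being TGFb array 2. In T-effector samples it gave 7.88, 7.47 and 7.71 in IL2, 6.36, 6.17 and 6.73 in TGFb, 7.69, 8.66, 8.08 and 8.58 with both, and 7.15, 7.64 and 7.12 in IL6. The Treg samples gave 8.09, 7.35 and 7.49, then 6.43, 5.54 and 6.36, then 7.32, 7.62, 7.21 and 7.95, and 7.84, 6.78 and 7.08. The TGFb samples lay below every other sample of either cell type. TGFb changed Cxcl10 by -1.55 ± 0.32 in Treg (2.93-fold lower, adjusted p = 0.00255) and -1.25 ± 0.32 in T-effector samples (2.38-fold lower, adjusted p = 0.0235). IL6 on top of TGFb raised it by 1.43 ± 0.29 (2.69-fold, adjusted p = 0.00348) and 1.83 ± 0.29 (3.54-fold, adjusted p = 0.00026), and TGFb on top of IL6 raised it by 0.94 ± 0.29 in T-effector samples (1.92-fold, adjusted p = 0.0427).

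The rise of Cxcl10 with IL6 was 0.85 and 0.89 in Treg and 1.36 and 1.33 in T-effector samples on slides D and E. On slide B its TGFb signal was not well above background, so that slide gives no exact difference. The fitted rises with IL6 added to TGFb and the fitted falls with TGFb added to IL2 rest in part on that signal. The Treg rise missed the threshold without TGFb array 2 (0.0514), and without slide B it was 0.87 (0.308). The T-effector fall with TGFb missed it without IL2 array 1 or 3 (0.131 and 0.0954) or TGFb array 1, 2 or 3 (0.0874, 0.0576 and 0.0576). The T-effector rise on top of IL6 missed it with slide as a block (0.95, adjusted p = 0.0587) and without IL2 array 2 or 3, TGFb array 1 or 3, array 2, 3 or 4 of TGFb with IL6, or IL6 array 1 or 3 (0.0524 to 0.199). Treg samples were below T-effector samples on 4 of 4 arrays of TGFb with IL6 (-0.36, -1.04, -0.87 and -0.63), with a fitted ratio of -0.73 ± 0.2 (adjusted p = 0.061) that was -0.74 and past the threshold with slide as a block (0.0335). The summed signal of 12 interferon-induced genes in T-effector samples was 4939 to 5469 in IL2, 6225 to 7090 in TGFb, 8677 to 10593 with both and 5562 to 6285 in IL6. In Treg samples it was 5770 to 10511, 5820 to 6814, 5866 to 7172 and 7470 to 10330. In T-effector samples 3 of the 12 genes rose and 0 fell when IL6 was added to TGFb, and 5 rose and 1 fell when TGFb was added to IL6. Of all genes 4.16% rose and 3.26% fell in the first comparison and 5.09% and 6.03% in the second. In Treg samples 0 of the 12 genes passed when IL6 was added to TGFb, against 5.6% of all genes. When TGFb was added to IL6, 0 rose and 3 fell in Treg samples, against 4.83% and 5.21% of all genes. When TGFb was added to IL2, 0 rose and 3 fell in Treg samples, against 3.66% and 4.08% of all genes. In T-effector samples 0 rose and 1 fell in that step, against 1.87% and 2.45%. The part of these genes in the Cxcl10 result was not tested.

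Ccl17 and Ccl22, the ligands of Ccr4, were dim. Ccl17 (chr8:93400914-93400973, plus strand) was above background in 8 of 13 Treg and 10 of 13 T-effector channels. Its Treg signals were 7.8, 6.7 and 6.94 in IL2 and 6.46, 6.24 and 6.33 in TGFb, a change of -0.85 ± 0.22 (1.81-fold lower, adjusted p = 0.018). The highest sample, 7.8, was that of slide A, and without that array the change was -0.5 (adjusted p = 0.175). The call was also lost without TGFb array 1, 2 or 3 (0.0588, 0.0719 and 0.0513). In T-effector samples Ccl17 lay between 6.06 and 6.63 in all 4 conditions and no difference passed.

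Ccl22 (chr8:93339853-93339912, plus strand) was not well above background in any of the 14 channels with TGFb. It was above background in 2 of 3 Treg and 3 of 3 T-effector channels of IL2, and in 2 of 3 of each of IL6. It thus passed the filter only through channels without TGFb, so its calls of a fall with TGFb are not independent of that filter. Both calls below were kept with no filter. For such a probe the fold is a lower bound, set against the lowest signal well above background. In Treg samples Ccl22 was at least 1.97-fold lower with TGFb and IL6 than with IL6 alone (6.92 against 5.91, adjusted p = 0.00141), and in T-effector samples at least 1.64-fold lower with TGFb than with IL2 (6.7 against 5.92, adjusted p = 0.0362). The 2 other such steps did not pass (adjusted p = 0.0538 and 0.0543). With slide as a block all 4 passed (log2 changes of -1.05 and -1.33 in Treg and -1.16 and -0.92 in T-effector samples, fitted values and not bounds). So did the Treg to T-effector ratio in IL6, 0.49 (adjusted p = 0.0331), which was 0.41 without the block (0.0628). The T-effector call was lost without IL2 array 2 or 3, any array of TGFb, any array of TGFb with IL6, or IL6 array 3 (0.0524 to 0.144).

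Dendritic cells and macrophages are known sources of Ccl17 and Ccl22. Of 13 markers of myeloid and dendritic cells on the array, Itgam was above background in 2 of 13 Treg and 0 of 13 T-effector channels, Cd209a in 0 and 1, and Lyz2 in 1 and 1. Xcr1, Cd74 and Fcer1g were above background in all 26. The summed signal in Treg samples was 2772 to 4095 in IL2, 2227 to 2933 in TGFb, 1774 to 2768 with both and 2620 to 3201 in IL6. In T-effector samples it was 2675 to 3115, 1849 to 2809, 1665 to 2720 and 1958 to 2505. The part of such cells in the Ccl17 and Ccl22 results was not tested.

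**Figure D3:**
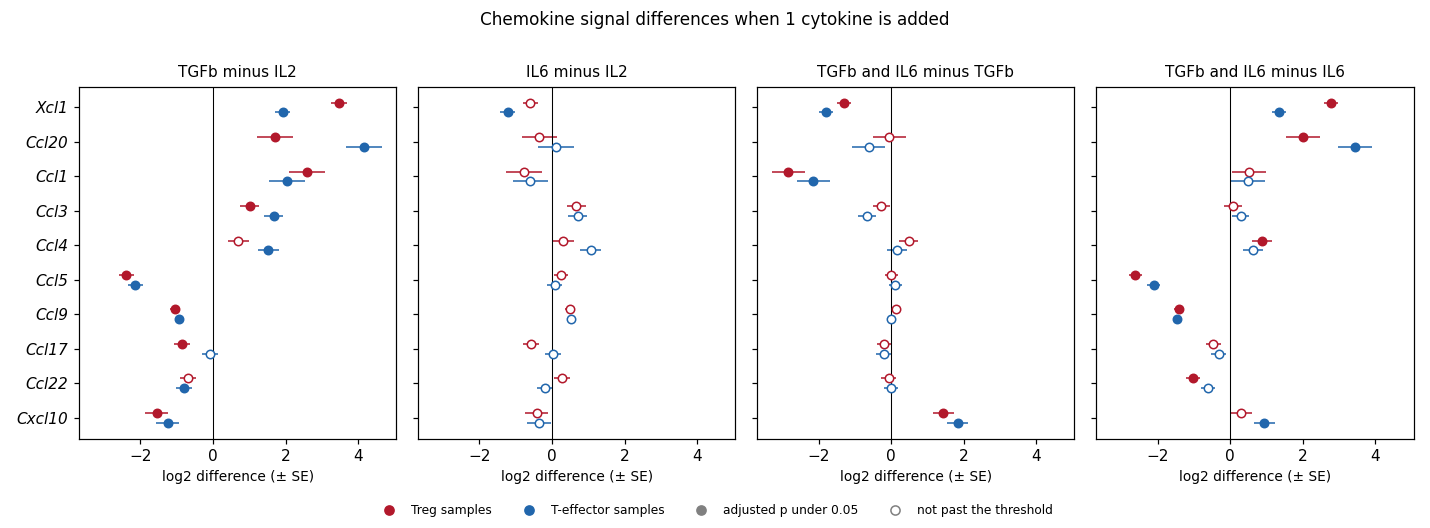
Fitted log2 differences (horizontal axis, bars are SE) of each chemokine (vertical axis) when 1 cytokine was added, 1 panel per comparison, with Treg and T-effector samples in separate colours and filled points for an adjusted p under 0.05. TGFb raised Xcl1 by 3.47 in Treg and Ccl20 by 4.16 in T-effector samples and lowered Ccl5 by over 2 in both, and IL6 added to TGFb lowered Ccl1 and raised Cxcl10 in both cell types.

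Arrays 1, 2 and 3 of TGFb on the same slides and with the same dyes as those of TGFb with IL6, and their deviations correlated in every pair (0.54 to 0.76 in the ratio), so the effect of IL6 on top of TGFb was also tested within the 3 pairs, with the replicate number as a block. In the Treg to T-effector ratio the pairs gave 5 of 10 members past the threshold, where the fit without the block gave 0, against 8.49% of all genes. The ratio rose for Xcl1 (0.56 ± 0.09, adjusted p = 0.00914), Ccl3 (0.44 ± 0.07, 0.0096) and Ccl20 (0.41 ± 0.07, 0.0172). It fell for Ccl1 (-0.71 ± 0.1, 0.00619) and Cxcl10 (-0.45 ± 0.07, 0.00861). The pairs leave out array 4 of TGFb with IL6, and this fit was added after seeing the data. Among the 25 alternatives to the main fit, slide and replicate blocks included, the ratio changes of Xcl1, Ccl1, Ccl20 and Cxcl10 passed under 0. That of Ccl3 passed under 1, with the spatial trend removed. Within the pairs Xcl1 changed by -1.25 in Treg and -1.8 in T-effector samples and Ccl20 by 0.04 and -0.37. In T-effector samples the pairs gave 5 members instead of 3, adding Ccl3 (-0.66 ± 0.08, adjusted p = 0.000214) and Ccl20 (-0.37 ± 0.08, 0.00704), against 26.1% of all genes. In Treg samples they gave 4 instead of 3, adding Ccl4 (0.42 ± 0.07, 0.00843), against 19.4% of all genes. Among the same alternatives, the T-effector change of Ccl3 passed under 4, and those of T-effector Ccl20 and Treg Ccl4 under 0.

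Of the 41 differences that passed, 40 also passed with slide as a block, the exception being Cxcl10 in T-effector samples with TGFb added to IL6, and 16 others passed only with it. Slide as a block gave more calls over all genes too. They went from 5686 to 7901 between Treg and T-effector samples and from 2011 to 2688 for changes of the ratio. Between conditions they went from 4849 to 7814 in Treg and from 4714 to 9150 in T-effector samples. On slide D, Treg samples rose with TGFb by 0.81 for Ccl3 and 1.19 for Ccl4 and T-effector samples by 1.67 and 1.85. On the same slide Ccl9 fell by 1.18 and 0.98 and Cxcl10 fell by 0.99 and 0.75. Each of these is the difference of 2 arrays and carries no test.

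**Figure D4:**
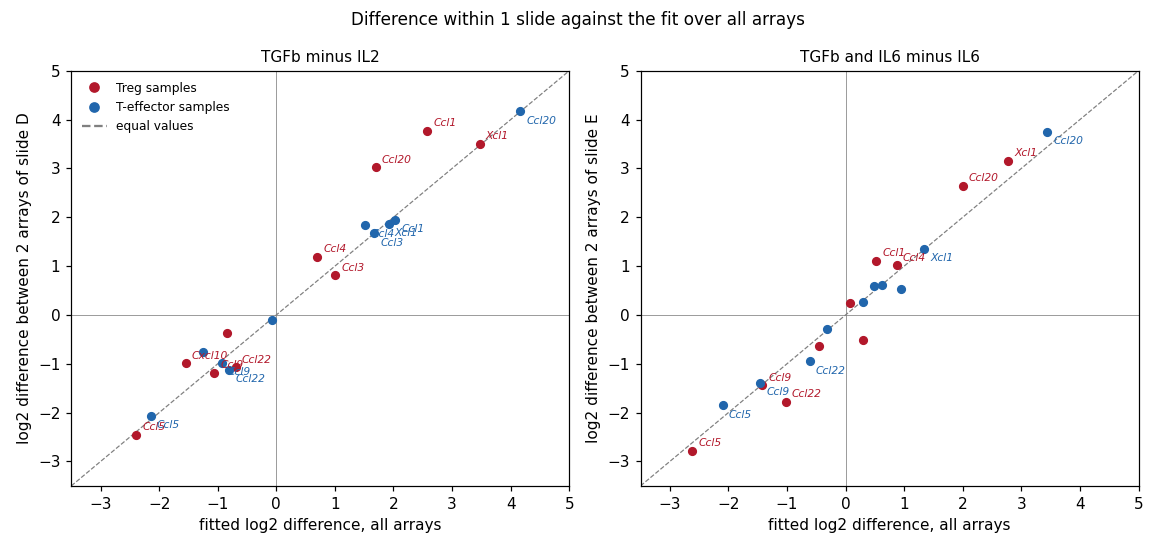
Log2 difference between 2 arrays of the same slide (vertical axis) against the fitted difference over all arrays (horizontal axis) for each chemokine, for TGFb minus IL2 on slide D and for TGFb with IL6 minus IL6 on slide E, with Treg and T-effector samples in separate colours and a dashed line of equal values. Xcl1 gave 3.51 on slide D against 3.47 over all arrays in Treg samples, and Ccl20 gave 4.17 against 4.16 in T-effector samples but 3.02 against 1.7 in Treg samples.

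Among the receptors of these ligands, Ccr1 was above background in 0 of 26 channels. Ccr8, the receptor of Ccl1, rose with TGFb in Treg samples by 1.27 ± 0.21 (adjusted p = 0.000268) and exceeded its T-effector signal in the Treg samples of TGFb (0.87 ± 0.17, 0.0131) and of TGFb with IL6 (0.72 ± 0.15, 0.0159). Cxcr3, the receptor of Cxcl10, rose with TGFb in Treg (1.74 ± 0.23, 1.8e-05) and T-effector samples (1.16 ± 0.23, 0.00358), while Cxcl10 fell.

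Ccr6, the receptor of Ccl20, passed in 1 comparison, with a Treg signal above that of T-effector samples in IL2 (0.64 ± 0.18, adjusted p = 0.0404). Xcr1, the receptor of Xcl1, also passed in that comparison alone (0.69 ± 0.18, 0.0332). Ccr4, the receptor of Ccl17 and Ccl22, fell in T-effector samples when IL6 was added to TGFb (-0.91 ± 0.22, 0.00951) and when TGFb was added to IL6 (-1.73 ± 0.22, 8.95e-06).

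Of 30 other chemokine genes, 27 were on the array and 15 were bright enough to be tested. With TGFb added to IL2, 0 of the 15 rose and 1 fell in each cell type, near the share of all genes that passed (7.75% in Treg and 4.32% in T-effector samples). They were Ccl25 in Treg (-0.52 ± 0.13, adjusted p = 0.0125) and Cxcl9 in T-effector samples (-0.49 ± 0.12, 0.0219). With TGFb added to IL6, Ccl24 fell in both cell types (-0.56 ± 0.16, 0.0313 and -0.58 ± 0.16, 0.0253). Ccl19, a ligand of Ccr7, had a higher Treg than T-effector signal in IL2 (2.24 ± 0.34, 0.0027) and IL6 (1.46 ± 0.34, 0.0287), and its ratio fell by 2.48 ± 0.48 from IL2 to TGFb (0.0167). Of 5 atypical receptors, which bind chemokines without the usual signal, 4 were tested, and Ccrl2 fell with TGFb in Treg (-0.51 ± 0.09, 0.000535) and T-effector samples (-0.37 ± 0.09, 0.0181) and with TGFb added to IL6 in Treg samples (-0.53 ± 0.08, 0.000128).

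The genes whose signal ran most like that of each member were named by Pearson's r over the 26 channels, which share arrays, slides and conditions. For Xcl1 they were Il3 (0.95), a cytokine of activated T cells, and Tbc1d4 (0.91). For Ccl20 they were Tmem65 and Nt5e (both 0.93), and for Ccl1 Igfbp7 (0.94) and Atp8a2 (0.91). For Ccl5 they were Vldlr and Ddt (both 0.96), and for Ccl9 Cst7 (0.96) and Gimap7 (0.94). For Ccl3 they were Ubash3b (0.85) and Bpnt1 (0.82), for Ccl4 Tlr1 (0.86) and Emp1 (0.84), for Ccl22 Ly75 (0.92) and Dmwd (0.91), for Ccl17 Apol7c and Pdzrn3 (both 0.83), and for Cxcl10 Pde4d (0.85) and the transcript ENSMUST00000050829 (0.83). Among the members, Ccl5 and Ccl9 ran together (0.92), as did Ccl5 and Ccl22 (0.85) and Xcl1 and Ccl1 (0.79). Ccl5 ran against Ccl20 (-0.89) and Xcl1 (-0.84), and Cxcl10 ran against Ccl1 (-0.68) with no clear relation to Ccl5 (0.2) or Ccl4 (0).

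In the authors' deposited table, which has 1 value per probe and condition, Xcl1 was -0.78 in IL2, 0.83 in TGFb, 1.42 with both and -0.14 in IL6. In the authors' deposited table Ccl20 was 1.7, -1.17, -0.67 and 1.65 in the same order, and Ccl1 was 1.04, 1.57, 1.04 and 1.3. The columns correlated with the ratios of the arrays at 0.77 to 0.8 with a slope of 1.42 to 1.75, and their medians were -0.08 to -0.02, so the direction is Treg over T-effector, while their exact scale and centring are not known.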

How the data were processed

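Each of 13 two-colour Agilent arrays measured Treg against T-effector RNA (45018 spots, 1639 of them controls). Per the file headers, the values are scanner intensities per dye from Agilent's Feature Extraction software (9.5.1.1), with processed intensities and a log10 ratio of Cy5 over Cy3 deposited beside them. The authors' deposited value table holds 1 log ratio per probe and condition, read here as log2, with its scale and centring unstated. The dye of each sample came from the labels.

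limma 3.58.1 in R 4.3.3 was used. Background was corrected by normexp (offset 50, leaving spots with a marked local background out of its fit), and ratios were normalized by loess within arrays. A probe had to be well above background in 3 of 26 channels or more, with at most 3 arrays missing, and the brightest probe of a gene was tested (19932 genes, 135 with a missing array, dropped there). All 10 members passed this filter with 0 arrays missing, Ccl22 only through channels without TGFb. Probe names came from accessions (22951), the files (8455), symbols (6659) and synonyms (3109). Ratios were fitted over all arrays with a dye term (8 residual degrees of freedom). Conditions were compared by limma's separate-channel fit after Aquantile normalization (intraspot correlation 0.45, 17 degrees of freedom). Each comparison's p-values were adjusted over all genes (Benjamini-Hochberg, threshold 0.05). Arrays are numbered in the order of the labels, and with them the replicates. The numbers were taken as pairs for TGFb and TGFb with IL6, where the pairs' deviations correlated at 0.54, 0.73 and 0.76 in the ratio. Across the other conditions they share no slide throughout and were not taken as pairs.

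The members, gene lists and tests were chosen with earlier results of these data known. All 10 members are named, with 2 most similar genes each, the receptors, other chemokines and atypical receptors of fixed lists, and marker lists. Not every gene of these lists is reported here. The number of arrays limits the precision. Alternatives were Agilent's processed signals, no dye term, no background subtraction, another background model, median centring (quantile normalization in the separate-channel fit), no filter or a stricter one, every probe, slide as a block, a replicate block and each array left out. Removal of the spatial trend, leaving out slide B and the block over pairs were added after seeing the data. The fits were tested on simulated data.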

Additional observations from a re-analysis of the deposited data

Results flagged for a closer look

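In the groups of 4 arrays, 3 values lay far from the other 3 of their group, among 30 such groups of values tested, of which chance marks about 1 in 20. The log2 ratio of Ccl1 on array 3 of TGFb with IL6 was 0.96, against 0.4 to 0.48 on the other arrays. The T-effector signal of Ccl5 on array 1 of TGFb with IL6 was 7.75, against 8.02 on each of the others. The Treg signal of Xcl1 on array 4 of TGFb with IL6 was 11.35, against 11.55 to 11.57.

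The effect of TGFb differed between Treg and T-effector samples by a test of that difference for Xcl1 and Ccl20. The Xcl1 ratio rose by 1.56 from IL2 to TGFb and by 1.43 from IL6 to TGFb with IL6. The Ccl20 ratio changed by -2.46 from IL2 to TGFb, where the Treg sample of slide A had the largest ratio, 2.53. Both genes rose with TGFb in both cell types, Xcl1 more in Treg and Ccl20 more in T-effector samples.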

How the results depend on the processing

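Of 41 chemokine differences past the threshold, 24 stayed past it under each of 25 alternatives, 17 missed it under at least 1 and 5 under 9 or more, and 0 changed direction. Members past the threshold between Treg and T-effector samples, 3 over the 4 conditions (2 higher, 1 lower), were 11 with Agilent's processed signals (9 and 2), 5 with no background subtraction, 1 with the background fit on all spots, 7 with centring on the median (1 and 6), 10 with slide as a block, 5 with a replicate block, 15 with the spatial trend removed, 1 without slide B and 2 to 9 without 1 array. For changes of the ratio, 3 (2 and 1), the counts were 6 with Agilent's signals (2 and 4), 1 with the background model on all spots, 6 with median centring (5 and 1), 5 with slide as a block, 6 with the spatial trend removed, 0 without slide B and 1 to 5 without 1 array. The highest of both ranges came without IL6 array 2, of slide A. Over all genes the calls between Treg and T-effector samples moved too. They went from 5686 to 15768 with Agilent's signals, 5532 with no background subtraction, 2671 with the background model on all spots and 19479 with median centring. They were 7901 with slide as a block, 4021 with a replicate block, 16354 with the spatial trend removed and 2095 without slide B. All-gene ratio changes went from 2011 to 7269, 1799, 716, 14524, 2688, 1384, 8042 and 243 in that order. Counts between conditions were 17 in Treg (13 to 18 without 1 array) and 18 in T-effector samples (14 to 19) and kept within 1.5 times. Centring shifted the all-gene median to -0.29 in IL2 and -0.32 in IL6, against 0.02 and 0.01, and to 0.42 and 0.32 in the changes of the ratio from IL2 and IL6. Relative to this Xcl1 was -1.63 in IL2, 0.95 in TGFb (adjusted p = 0.155), 1.22 with both and -0.91 in IL6 (0.0309), and other ratios turned over, past the threshold for Ccl5 in IL2 (0.29 to -0.63, 0.0393) and Ccl9 in IL2 (0.17 to -0.51, 0.0255) and IL6 (0.13 to -0.64, 0.00944), and not past it, among others, for Ccl3 (-0.45) and Ccl4 (-0.37) in IL2. Ccl4 in IL6 went from -0.07 to -1.27 (0.000949). With the background model on all spots Xcl1 missed the threshold in IL2 (0.1), TGFb (0.0803) and the change from IL2 (0.0538), as did Ccl20 in the latter (0.25). Without slide B 13 calls were lost, all 3 of the Xcl1 ratios among them (0.068, 0.209 and 0.0649) and both of its changes (0.0721 and 0.133), with fewer arrays in the fit. With a replicate block, whose numbers pair TGFb and TGFb with IL6 and no other conditions, 4 calls missed the threshold, Xcl1 in IL2 (0.0543) among them. Agilent's processed signals gave larger changes of dim probes, such as -3.52 for Ccl22 in Treg samples with TGFb added to IL6. The cause of these shifts was not tested.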
